A study of Mus musculus with 4 samples.

Results

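Interferon-stimulated effector genes are the genes that a cell switches on after interferon has bound its receptors, and whose products act directly on viruses or on the infected cell. The set described here has 50 genes, chosen by name, out of the 55536 genes counted, and each of the 50 symbols matched 1 Ensembl gene ID. They were followed in primary ear fibroblasts of the C57BL/6 strain, in which the small nucleolar RNA AF357425 was set high or low. AF357425 belongs to the C/D box class and lies in the imprinted Dlk1-Dio3 locus. These states are titled AF357425-High and AF357425-Low, and each gave 1 whole-cell library and 1 library of RNA pulled down with an antibody to fibrillarin, the methyltransferase of C/D box particles. All cells were grown in medium with 10% fetal calf serum. Before harvest they had 48 h of the kinase inhibitor KN93, given to synchronise the cell cycle, and 24 h of transfection. The sample characteristics and the design text call the states overexpression and inhibition of AF357425, whereas the treatment protocol names gapmers (antisense oligonucleotides) against AF357425 or a scrambled control, so the agent behind each state is uncertain. No source used here gives the number or age of the mice, or says whether cells of several animals were pooled.

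Type I interferons bind a receptor pair on the cell surface, and the kinases attached to it activate a transcription factor complex that holds Stat2 and Irf9 and binds the interferon-stimulated response element (ISRE) in the promoters of these genes. Fibroblasts are a classical source of, and responder to, type I interferon, and cytoplasmic nucleic acid is among the known triggers. The products include RNA-binding IFIT proteins, oligoadenylate synthetases that activate RNase L, the ubiquitin-like modifier Isg15 with its enzymes, GTPases, nucleases, helicases, ubiquitin ligases, nuclear body proteins and chemokines.

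The response element was looked for in the promoters. RefSeq promoters (GRCm38.p6, 250 bases before to 50 after the start) were found for 41 of the 50 members. An ISRE-like match, which is GAAA, any 2 bases and again GAAA, searched on both strands with overlapping matches counted,, occurred in 16 of 41 members, or 39.0% (exact Clopper-Pearson 95% interval 24.2 to 55.5%). Of 27025 genes with a promoter, 1079 had it, or 3.99%. Below are 80-base stretches upstream of the start for the 6 members with the highest pulldown ratio that held a match, with at most 1 from each functional group. They are shown as examples of the letters and their surroundings in members that differed between the pulldowns. Of these, Phf11b and Oas3 passed the level filter of that comparison only through AF357425-High. Capitals mark the match.
Phf11b: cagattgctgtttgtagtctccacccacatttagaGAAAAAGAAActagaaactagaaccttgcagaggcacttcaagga
Cxcl10: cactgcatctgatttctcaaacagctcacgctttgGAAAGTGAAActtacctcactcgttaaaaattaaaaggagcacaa
Oas3: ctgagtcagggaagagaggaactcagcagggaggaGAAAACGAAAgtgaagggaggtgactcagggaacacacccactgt
Ifit3: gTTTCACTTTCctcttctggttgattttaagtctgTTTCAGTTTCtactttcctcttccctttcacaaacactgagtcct
Rsad2: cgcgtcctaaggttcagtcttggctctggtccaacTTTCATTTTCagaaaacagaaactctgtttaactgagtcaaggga
Trim30a: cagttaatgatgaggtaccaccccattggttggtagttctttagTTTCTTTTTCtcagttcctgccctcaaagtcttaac
These stretches lie 5′ of the annotated start and are written 5′ to 3′ on the strand of the gene. They are chr14:59341336-59341415 (minus strand), chr5:92349058-92349137 (minus), chr5:120777690-120777769 (minus), chr19:34583372-34583451 (plus), chr12:26456528-26456607 (minus) and chr7:104465194-104465273 (minus). In Ifit3, Rsad2 and Trim30a the match reads on the other strand, and Ifit3 has 2 of them, whose first bases lie at positions -156 and -122 from the start. Isg15 had 3 overlapping matches, at -78, -72 and -66.

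A longer form, in which CT follows the last GAAA, was found in 11 of 41 members (26.8%, 14.2 to 42.9%) and in 82 of 27025 genes (0.303%). The letters TTCNNNGAA, which read the same on both strands and are the core of the gamma-activated sequence, were found in 6 of 41 members (14.6%, 5.57 to 29.2%) and in 9.55% of all genes. The ISRE-like share of the members thus lay above that of all promoters with its whole interval, and the interval of the gamma-activated letters held the share of all promoters. These intervals treat promoters as separate, although close copies (Oas1a and Oas1g, Ifit3 and Ifit3b) held the same ISRE-like letters. The members were also chosen by name as interferon-stimulated genes, so a high ISRE-like share was likely beforehand. The shares are description only. A match describes letters and is not a binding site, and no match says only that the letters are absent from this window. By the rule given below, 14 of 15 measured members with an ISRE-like match were called higher in the AF357425-High pulldown. Of measured members with a promoter but no match, 23 of 24 were, and 3.43% of 10736 genes. The median log2 ratios of these members were 3.36 and 2.28. The 2 groups also differed in level: 8 members with a match and 21 without were frequent enough to be measured in whole-cell RNA. Rare members had higher pulldown ratios, with a median of 3.46 under 5 CPM in whole-cell RNA and 1.79 at 20 CPM or more. Whether a match goes with the ratio was not tested.

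**Figure D1:**
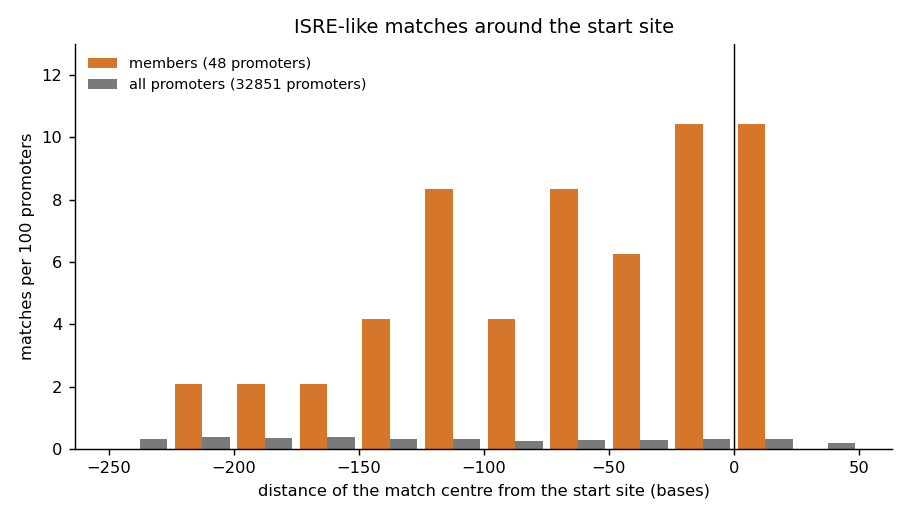
Number of ISRE-like matches per 100 promoters (vertical axis) against the distance of the match centre from the start site in bases (horizontal axis, bins of 25 bases), for 48 promoters of 41 members and for all 32851 promoters. Bars of the members reach 10.4 per 100 promoters on either side of the start, and those of all promoters stay between 0.189 and 0.384.

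Whole-cell libraries held 22082565 and 21693030 reads assigned to genes (AF357425-High first, here and throughout), and the pulldown libraries 25857770 and 27832061. In counts per 1000000 gene reads (CPM), a gene at 0 could still have had up to 0.136 and 0.138 in whole-cell RNA and up to 0.116 and 0.108 with fibrillarin, taking 3 reads as the limit. Mitochondrial ribosomal RNA held 63.4% and 59.8% of the pulldown reads and under 0.1% of the whole-cell reads. With 1 library in each group there is no replicate check: intervals cover counting error only, PCR copies cannot be told from separate molecules without molecular identifiers, and no test between groups was run. AF357425 had 0 reads in every library, so the labels could not be checked by their target. The 10 fibroblast markers summed to 41470 and 51890 CPM in whole-cell RNA and to 6606 and 6660 CPM in the pulldowns. The 11 markers of macrophages and other white blood cells summed to 13.4 and 12.9 CPM in whole-cell RNA and to 2.48 and 2.37 CPM in the pulldowns, with Adgre1, H2-Ab1 and Aif1 at 0 in all 4 libraries. Summed markers of T, NK and B cells, of keratinocytes and of mast cells stayed under 1 CPM in every library. The 6 markers of plasmacytoid dendritic cells summed to 484 and 439 CPM in whole-cell RNA and to 299 and 389 CPM in the pulldowns. Of these, Tcf4 alone had 453 and 410 CPM and 247 and 380 CPM. Il3ra had 23.6 and 21.0 CPM in whole-cell RNA, Bst2 is itself a member, and Siglech had 0, 1, 0 and 0 reads. The 6 endothelial markers summed to 8.02 and 8.21 CPM and to 3.44 and 6.04 CPM. Chondrocyte markers, 5 genes, summed to 262 and 185 CPM in whole-cell RNA and to 111 and 136 CPM in the pulldowns. Of these, Cnmd (2.73) and Col2a1 (1.24) were called higher by log2 ratio in AF357425-High whole-cell RNA, by the rule given below, and in the pulldown neither was, at -0.05 and 0.01. The summed white blood cell markers thus differed little between the pulldowns, although Cd14 alone had 28 and 4 reads there. The part of these cell types in the results was not tested, and in bulk RNA a change in the number of expressing cells and a change in RNA per cell cannot be told apart.

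The members took more of the AF357425-High pulldown than of any other library. Their summed reads made 0.392% of gene reads there (exact 95% interval 0.390 to 0.394%), against 0.0924% (0.0913 to 0.0935%) in the AF357425-Low pulldown and 0.0993% and 0.0904% in whole-cell RNA. Without the mitochondrial ribosomal RNAs the pulldown shares were 1.07% and 0.230%. The median level of the 50 members was 35.2 CPM in the AF357425-High pulldown, 9.22 CPM in the AF357425-Low pulldown, and 3.60 and 3.02 CPM in whole-cell RNA. At least 10 CPM was reached by 38 members in the AF357425-High pulldown, 24 in the AF357425-Low pulldown, and 17 and 14 in whole-cell RNA.

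**Figure D2:**
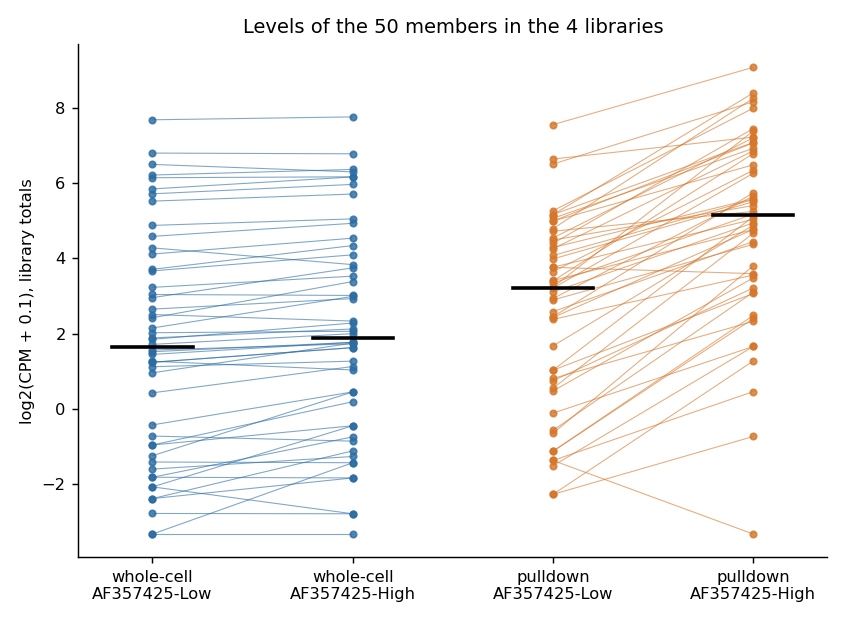
Level of each of the 50 members as log2(CPM + 0.1) on library totals (vertical axis) in the 4 libraries (horizontal axis), with a thin line joining the states of a member and a black bar at the median. The whole-cell states lie level with each other, and the AF357425-High pulldown lies above the other 3 libraries, with Epsti1 at 0 reads as the point that falls to the bottom.

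The first comparison asks which member RNAs differed between the fibrillarin pulldowns of the states. The series has no mock or control-antibody pulldown. RNA bound with fibrillarin thus cannot be told from RNA carried over, here and below. By CPM on library totals, 48 of the 50 members were higher in AF357425-High; the other 2 were Ifi27 and Epsti1. Ratios below are log2 after scaling by the trimmed mean of M values (TMM), and genes whose entire 95% counting interval lay past 2-fold are named called, higher or lower. In the pulldown TMM ratios lie 0.29 above those of library totals. Because a filter on the pulldown itself lets in genes that are high in 1 state, the members were first counted among genes that averaged 1 CPM or more over the whole-cell libraries. There 31 of 34 members were called higher, with a median of 2.18, and 3.56% of all such genes were. Among genes with at least 1 CPM in the AF357425-Low pulldown, 37 of 40 members were called higher, and 2.25% of all such genes were. Both filters were added after the data were seen. With the mean of at least 1 CPM over the 2 pulldowns, 47 members were measured, 44 were called higher and 0 lower, against 3.43% and 2.90% of 10736 genes. Of these 47, 7 passed although they were under 1 CPM in AF357425-Low, so that they had to differ. The median of the 47 was 2.65, and that of all genes -0.01.

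**Figure D3:**
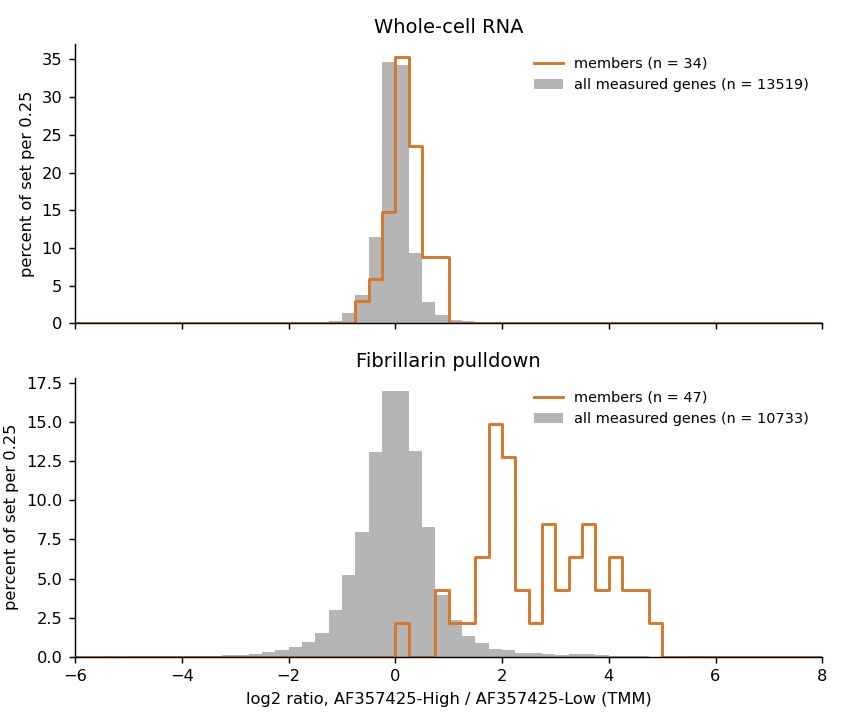
Distribution of the log2 ratio of AF357425-High over AF357425-Low (horizontal axis) as percent of each set per step of 0.25 (vertical axis), for whole-cell RNA (upper) and the pulldown (lower). Grey bars are all measured genes with reads in both libraries and the orange outline is the members, which lie near 0 in whole-cell RNA (34 members) and between 0.13 and 4.98 in the pulldown (47 members).

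The IFIT proteins, which bind viral RNA and block its translation, lie side by side on chromosome 19 (34550550 to 34650009 in GRCm38.p6, the build of all positions given here). All 4 were called higher in the AF357425-High pulldown. Ifit3 had 7.52 and 6.18 CPM in whole-cell RNA and 304 and 27.5 CPM in the pulldowns, a pulldown ratio of 3.76 (95% interval 3.66 to 3.87). Ifit1, which recognises the cap of foreign RNA, had 7.83 and 4.33 CPM in whole-cell RNA and 253 and 38.2 CPM in the pulldowns, a ratio of 3.02 (2.93 to 3.12). The AF357425-Low pulldown was thus above whole-cell RNA for both genes, and the AF357425-High pulldown above all. Ifit2 had 14.1 and 19.3 CPM in whole-cell RNA and 80.8 and 12.4 CPM in the pulldowns, a ratio of 2.999 (2.83 to 3.17), and differed from the others in that its AF357425-Low pulldown was its lowest library. Ifit3b, a close copy of Ifit3, had 3.35 (3.22 to 3.48); no source used here says how reads that fit several copies were counted, so the values of such paralogs are uncertain, here and for the Oas1, Phf11, Mx, Slfn, Trim30 and Sp100 families. Ifit1 and Ifit3b also overlap the annotated span of Ifit1bl1.

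Oligoadenylate synthetases make the messenger that activates RNase L, and the Oasl proteins are related RNA binders. They were rare in all libraries but the AF357425-High pulldown, except for Oasl2. Oasl2 had 2.99 and 2.26 CPM in whole-cell RNA and 147 and 23.2 CPM in the pulldowns, a ratio of 2.96 (2.84 to 3.08). Oas3 had 6 and 6 reads in whole-cell RNA, while its pulldowns had 219 and 16, a ratio of 4.18 (3.44 to 5.01). Oas2 had 4 and 2 reads in whole-cell RNA, while its pulldowns had 142 and 10, a ratio of 4.23 (3.31 to 5.32). Oas1a (79 against 7 pulldown reads) and Oasl1 (134 against 10) were called higher too, and, like Oas2 and Oas3, passed the filter only through AF357425-High. Oas1g, a near copy of Oas1a, had no whole-cell reads and 13 and 3 pulldown reads, a ratio of 2.52 (0.65 to 4.97), and was not measured. The genes of Oas1a, Oas1g, Oas2 and Oas3 lie in the same region of chromosome 5 (120730333 to 120907544). Their relative Oas1b, which is not a member and lies 34951 bases beyond Oas3, had a pulldown ratio of 0.52 and was not called.

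Isg15 is a ubiquitin-like modifier; Uba7 activates it, Herc6 is the ligase that attaches it in mice, and Usp18 removes it and dampens receptor signalling. All 4 were called higher in the AF357425-High pulldown, of which Uba7 passed the filter only through AF357425-High. Isg15 had 4.26 and 3.596 CPM in whole-cell RNA and 115 and 19.0 CPM in the pulldowns, a ratio of 2.90 (2.77 to 3.04). Herc6 had 4.08 and 3.96 CPM in whole-cell RNA and 30.6 and 8.52 CPM in the pulldowns, a ratio of 2.14 (1.93 to 2.35). Usp18 had 73 and 57 whole-cell reads and 560 and 164 pulldown reads, a ratio of 2.17 (1.92 to 2.43). The interval of the modifier lay above those of Herc6 and Usp18. Uba7 had 3.89 and 3.18 CPM in whole-cell RNA and 3.06 and 0.826 CPM in the pulldowns, neither of them above its whole-cell level, and a ratio of 2.18 (1.5 to 2.92).

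Among 12 antiviral enzymes, helicases and restriction factors, all were measured in the pulldown and all were called higher in AF357425-High, from 1.21 to 4.51. Mx1, a GTPase that blocks influenza virus and is defective in most laboratory mouse strains (RefSeq lists Mx1 and Mx2 as transcribed pseudogenes), had 6 and 0 reads in whole-cell RNA, while its pulldowns had 654 and 38. Its ratio was 4.51 (4.03 to 5.02) in the pulldown. In whole-cell RNA it was 1.88-fold higher in AF357425-High with a floor of 3 reads in place of 0. The lower end of its counting interval there was a log2 ratio of 0.1451. Mx2 had a pulldown ratio of 1.48 (1.19 to 1.78), with 301 against 142 reads, the smallest gap between states after Pnpt1 in this group, and with library totals it was 1.19 and no longer called. Rsad2 (viperin, which makes a chain-terminating nucleotide) and the nucleotide kinase Cmpk2 that feeds it are neighbours on chromosome 12 (26442743 to 26479837). Rsad2 had 0.634 and 0.415 CPM in whole-cell RNA and 110 and 10.46 CPM in the pulldowns, and Cmpk2 had 1.04 and 0.415 CPM and 34.4 and 1.94 CPM. Both neighbours were high in AF357425-High, with ratios of 3.69 (3.51 to 3.87) and 4.44 (4.05 to 4.87). Samd9l, which cuts transfer RNA and restrains translation, had 71.3 and 57.2 CPM in whole-cell RNA and 285 and 90.5 CPM in the pulldowns, a ratio of 1.95 (1.88 to 2.01). Znfx1, a helicase that senses RNA at mitochondria, had 81.9 and 73.9 CPM in whole-cell RNA and 121 and 33.3 CPM in the pulldowns, a ratio of 2.16 (2.05 to 2.26). By library totals its AF357425-Low pulldown was thus below whole-cell RNA and its AF357425-High pulldown above it. The order in AF357425-Low turned under other scalings, given further below. Znfx1 also overlaps the gene Zfas1, so reads there are of uncertain origin. The schlafens Slfn5 and Slfn2 had 3.39 (2.89 to 3.93) and 2.83 (2.36 to 3.33), the helicases Ddx60 and Helz2 1.78 (1.55 to 2.02) and 1.59 (1.44 to 1.74), and the exonuclease Isg20 1.87 (1.37 to 2.39). Slfn5 (286 against 36 pulldown reads) and Ddx60 (532 against 204) were rare in whole-cell RNA, with at most 28 reads, whereas Helz2 had 1373 and 1134 whole-cell reads and 1232 and 540 pulldown reads. Pnpt1, the mitochondrial polynucleotide phosphorylase, had the smallest ratio of the group, with 32.9 and 29.2 CPM in whole-cell RNA and 42.1 and 22.3 CPM in the pulldowns. Its ratio of 1.21 (1.07 to 1.36) became 0.92 with library totals and 1.14 with totals without the 20 most abundant genes, and was called with neither.

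**Figure D4:**
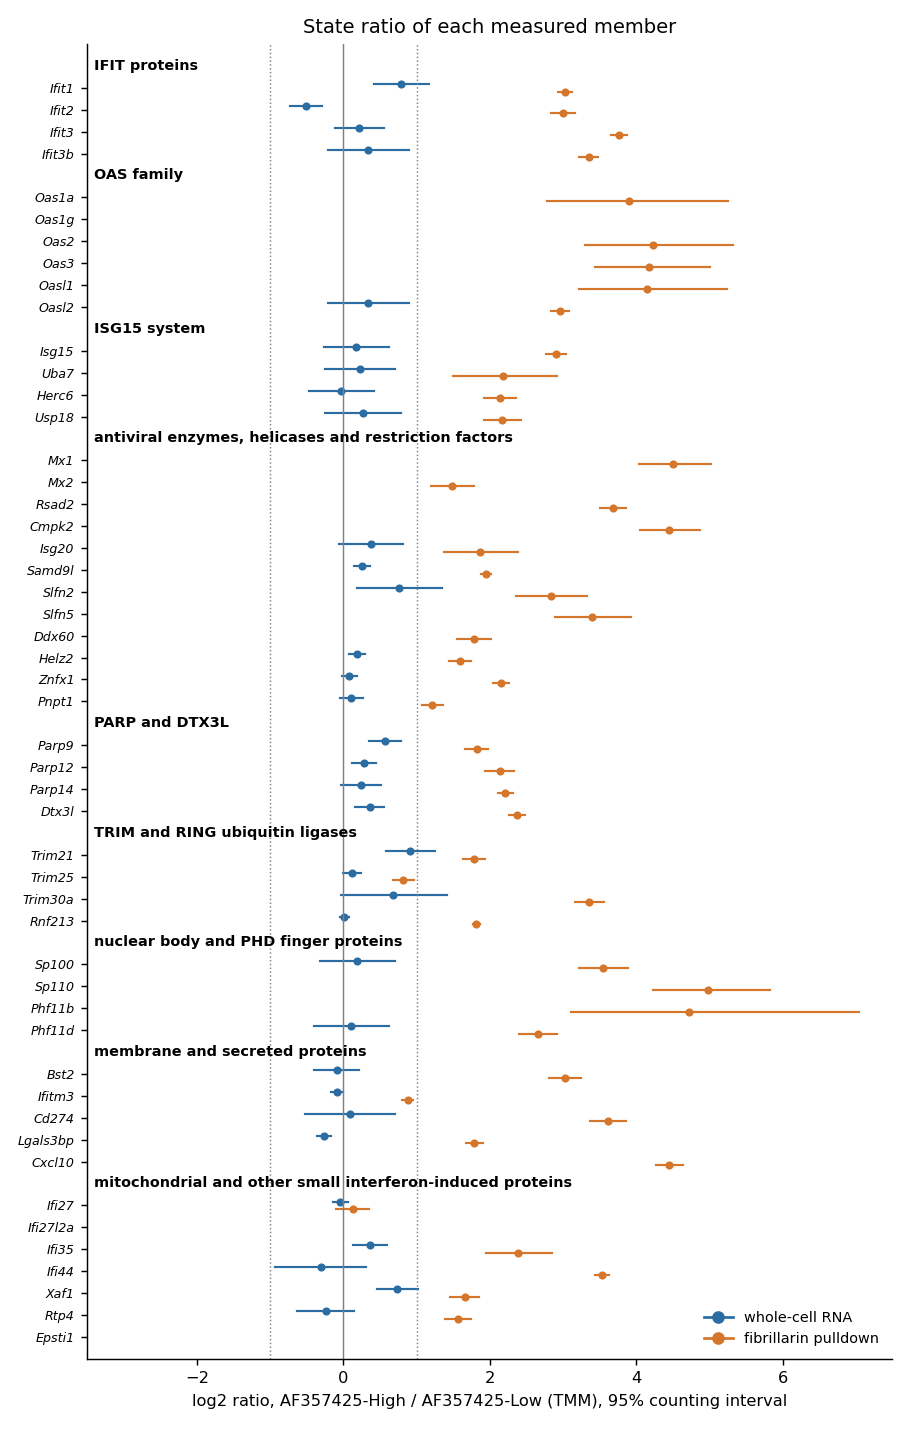
Log2 ratio of AF357425-High over AF357425-Low (horizontal axis) for each measured member, grouped by role, with 95% counting intervals; blue is whole-cell RNA, orange is the pulldown, dotted lines mark 2-fold. Intervals of the pulldown lie right of the 2-fold line except for Trim25, Ifitm3 and Ifi27, and no whole-cell interval lies wholly beyond it.

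Parp12 and Parp14 attach ADP-ribose to proteins, and Dtx3l is the ubiquitin ligase that pairs with Parp9. The genes of Parp14, Dtx3l and Parp9 lie together on chromosome 16 (35831892 to 35972621), and the spans of Dtx3l and Parp9 overlap at their ends, so reads there are of uncertain origin. Parp14 had 11.4 and 9.27 CPM in whole-cell RNA and 135 and 35.7 CPM in the pulldowns, a ratio of 2.21 (2.11 to 2.31). Dtx3l had 23.1 and 17.2 CPM in whole-cell RNA and 134 and 31.7 CPM in the pulldowns, a ratio of 2.37 (2.27 to 2.48). Parp9, its partner, had 444 and 281 reads in whole-cell RNA, while its pulldowns had 1168 and 437, a ratio of 1.82 (1.66 to 1.98). Parp12 had 30.3 and 23.8 CPM in whole-cell RNA and 35.9 and 10.0 CPM in the pulldowns, a ratio of 2.14 (1.94 to 2.33). All 4 genes were called higher, with ratios from 1.82 to 2.37.

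Of the ubiquitin ligases, Rnf213, a giant protein that coats bacteria and lipid droplets, had more reads than any other member in every library. It had 215 and 204 CPM in whole-cell RNA and 537 and 187 CPM in the pulldowns, a ratio of 1.82 (1.77 to 1.86). Trim30a, a regulator of inflammatory signalling, had 2.08 and 1.24 CPM in whole-cell RNA and 76.4 and 9.13 CPM in the pulldowns, a ratio of 3.36 (3.17 to 3.55). Trim21, the cytoplasmic antibody receptor, had 10.3 and 5.26 CPM in whole-cell RNA and 47.0 and 16.7 CPM in the pulldowns, a ratio of 1.78 (1.63 to 1.94). For these 3 ligases the AF357425-High pulldown was the highest of the 4 libraries. Trim25, the ligase that acts on the RNA sensor RIG-I, was not called: it had 52.0 and 45.7 CPM in whole-cell RNA and 37.7 and 26.2 CPM in the pulldowns, a ratio of 0.82 (0.68 to 0.96).

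Sp100 and Sp110 are proteins of nuclear bodies, and the Phf11 proteins carry a PHD finger. The 4 genes of this group were called higher. Sp100 had 3.31 and 2.77 CPM in whole-cell RNA and 29.4 and 3.09 CPM in the pulldowns, a ratio of 3.54 (3.22 to 3.88). Sp110 had 7 and 5 reads in whole-cell RNA, while its pulldowns had 358 and 15, and its ratio of 4.98 (4.24 to 5.83) was the highest of all measured members. It overlaps the related gene Sp140. For both Sp genes the AF357425-High pulldown stood apart from the other 3 libraries. Phf11d had 3.22 and 2.86 CPM in whole-cell RNA and 27.1 and 5.28 CPM in the pulldowns, a ratio of 2.65 (2.396 to 2.92). Phf11b had 1 and 1 reads in whole-cell RNA, while its pulldowns had 60 and 3, a ratio of 4.72 (3.11 to 7.04). Sp110 and Phf11b passed the filter only through AF357425-High.

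Membrane and secreted members differed widely. Cxcl10, the chemokine that draws T cells, had 8 and 2 reads in whole-cell RNA, while its pulldowns had 4301 and 259, a ratio of 4.45 (4.27 to 4.64); it overlaps the gene Art3. Cd274 (PD-L1, a brake on T cells) had 2.31 and 2.07 CPM in whole-cell RNA and 53.4 and 5.35 CPM in the pulldowns, a ratio of 3.61 (3.37 to 3.87). Bst2 (tetherin, which holds budding virus at the membrane) had 50.1 and 7.55 CPM in the pulldowns, a ratio of 3.03 (2.81 to 3.24). These 3 genes were low in whole-cell RNA or, for Bst2, level between its states at 7.97 and 8.11 CPM. Lgals3bp, a secreted galectin-binding protein, had 78.3 and 89.8 CPM in whole-cell RNA and 89.2 and 31.6 CPM in the pulldowns, a ratio of 1.79 (1.68 to 1.90). Ifitm3, which blocks virus entry at the endosome and is expressed by fibroblasts without interferon, was not called. It had 109 and 111 CPM in whole-cell RNA and 149 and 99.2 CPM in the pulldowns, a ratio of 0.88 (0.81 to 0.95).

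Of the 7 remaining small interferon-induced proteins, 5 were measured and 4 called higher. Ifi44 had 1.95 and 2.30 CPM in whole-cell RNA and 336 and 35.6 CPM in the pulldowns, a ratio of 3.53 (3.44 to 3.63). Ifi35 had 16.9 and 12.6 CPM in whole-cell RNA and 8.28 and 1.94 CPM in the pulldowns, a ratio of 2.39 (1.95 to 2.85). Both were high in the AF357425-High pulldown relative to the other pulldown, but Ifi35 stayed below its whole-cell level. Xaf1, an antagonist of the apoptosis inhibitor XIAP, had 699 and 293 pulldown reads, a ratio of 1.66 (1.46 to 1.86). Rtp4, a chaperone of receptors, had 843 and 375 pulldown reads, a ratio of 1.57 (1.39 to 1.75). Ifi27, a mitochondrial protein, was the member that did not follow: it had 71.5 and 70.3 CPM in whole-cell RNA and 11.9 and 13.4 CPM in the pulldowns. Its ratio was 0.13 (-0.10 to 0.35), and with library totals its sign turned. Ifi27l2a, whose RefSeq span overlaps that of Ifi27, had 11 and 4 reads in whole-cell RNA, while its pulldowns had 33 and 8, and it was not measured. Epsti1 was near 0 in all libraries, with 1 and 3 reads in whole-cell RNA, while its pulldowns had 0 and 8, and it was not measured either. With a floor of 3 reads in place of 0, Epsti1 was 2.02-fold lower in the AF357425-High pulldown, the reverse of the other members. The upper end of its counting interval there was a log2 ratio of -0.3706. Spans of 19 members overlap another annotated gene, and fragments that HTSeq called ambiguous made 9.38% and 8.54% of the pulldown libraries, against 1.05% and 1.09% of the whole-cell libraries. Without the overlapping members, 28 of 29 were called higher.

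Setting the states against each other in whole-cell RNA asks whether the same genes differ in the cell as a whole. There the members lay close to 0. Of 34 measured members none was called higher or lower, where 0.111% and 0.133% of 13519 genes were. The members' median was 0.21 and that of all genes -0.01, and 26 of 34 members were positive against 6520 of 13519 genes. Whole intervals lay above 0 for 10 of the 34 members and below 0 for 3, and over all 13519 genes for 2433 and 2774. With library totals, which moved the median of all genes to 0.06, 17 members lay above 0 and 2 below. Trim21 had the highest ratio, 0.91 (0.58 to 1.25). Ifit1 had 0.79 (0.42 to 1.17), Slfn2 0.76 (0.18 to 1.35), Xaf1 0.73 (0.45 to 1.02) and Parp9 0.57 (0.35 to 0.79). The other members with an interval above 0 were Samd9l, Helz2, Parp12, Dtx3l and Ifi35, between 0.19 and 0.36. Below 0 lay Ifit2 at -0.51 (-0.73 to -0.30), Lgals3bp at -0.26 (-0.36 to -0.17) and Ifitm3 at -0.09. With library totals 28 of 34 members were positive, and the interval of Ifitm3 no longer lay below 0. The remaining 16 members were too rare to be measured in whole-cell RNA. Of these, Mx2 had 28 and 7 reads, a ratio of 1.91 (0.68 to 3.35), Oasl1 14 and 3 reads (2.13, 0.29 to 4.57) and Cmpk2 23 and 9 reads (1.26, 0.10 to 2.56).

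Subtracting the whole-cell log2 ratio of a gene from its pulldown log2 ratio asks whether the pulldown difference exceeds that in the cell. This change was taken where each of the 4 libraries held 10 reads or more, with a normal 95% interval from the counts. Of 36 members with enough reads, 27 were called higher and 0 lower, against 2.65% and 1.66% of 11356 genes. Their median was 2.02. Ifi44 had the largest change, 3.84 (3.24 to 4.44), followed by Slfn5 at 3.62 (2.29 to 4.95), Ifit3 at 3.54 (3.20 to 3.89), Cd274 at 3.52 (2.90 to 4.15) and Ifit2 at 3.51 (3.24 to 3.78). These 5 genes belong to 4 different functional groups. The 9 members not called were Isg20, Ddx60, Pnpt1, Parp9, Trim21, Trim25, Ifitm3, Xaf1 and Ifi27. Among these, Ifi27 had 0.17 (-0.07 to 0.41), Trim25 0.70 (0.51 to 0.88) and Trim21 0.88 (0.52 to 1.23).

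Within each state, the pulldown was also set against whole-cell RNA, with library totals as the scale. The 2 kinds of library were counted in separate tables and only the pulldown RNA is stated to be depleted of ribosomal RNA, so these levels are across separately made libraries. In AF357425-High, 35 of 47 members were called higher in the pulldown and 1 lower, where 2.41% of all genes were higher and 74.1% lower. In AF357425-Low, 14 of 39 members were called higher and 7 lower, where 2.58% of all genes were higher and 62.4% lower. The members' medians were 3.03 and 0.88, and those of all genes -2.13 and -1.73. All 14 called higher in AF357425-Low were called in AF357425-High as well. The 1 CPM minimum was set on the average of both libraries compared. Members under 1 CPM in whole-cell RNA thus entered only through the pulldown and had to differ. In AF357425-High these were Oas1a, Oas2, Oas3, Oasl1, Mx1, Rsad2, Slfn5, Sp110, Phf11b and Cxcl10, all called higher. In AF357425-Low they were Mx2, Rsad2, Cmpk2, Ddx60 and Cxcl10, all called higher, while Uba7 entered only through whole-cell RNA and was called lower.

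Cxcl10 lay highest above whole-cell RNA in both states, at 8.84 in AF357425-High and 6.66 in AF357425-Low. Rsad2 had 7.44 and 4.66, Ifi44 7.43 and 3.95, Ifit1 5.02 and 3.14, and Oasl2 5.62 and 3.36. For these genes even the AF357425-Low pulldown exceeded its whole-cell library. Cxcl10 and Rsad2, however, were under 1 CPM in whole-cell RNA of both states, so that they had to differ to be measured. The 7 members called lower in AF357425-Low were Uba7, Helz2, Znfx1, Parp12, Lgals3bp, Ifi35 and Ifi27, from -1.15 (Znfx1) to -2.70 (Ifi35). Of these only Ifi27 was also called lower in AF357425-High, at -2.58. Among the 39 members measured in both states, only Mx2 and Ifi27 had a pulldown-to-whole-cell ratio that was not larger in AF357425-High. For Ifi27 this depended on library totals, since its change with TMM was 0.17 (-0.07 to 0.41). Without the mitochondrial ribosomal RNAs in the totals, the counts were 42 higher and 0 lower in AF357425-High and 25 higher and 0 lower in AF357425-Low, and Znfx1 and Parp12 turned from lower to slightly positive in AF357425-Low (0.16 and 0.06).

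**Figure D5:**
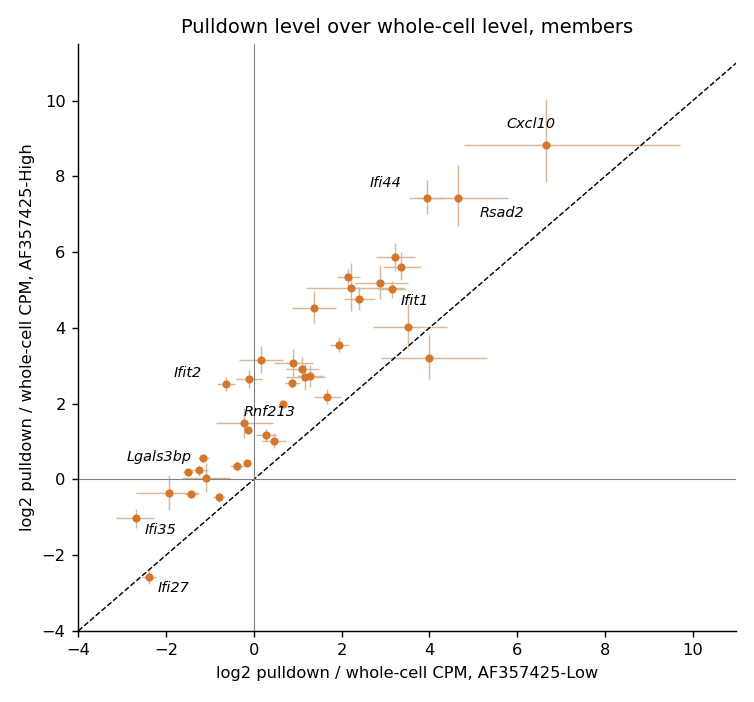
Log2 ratio of pulldown CPM over whole-cell CPM in AF357425-Low (horizontal axis) and AF357425-High (vertical axis) for the 39 members measured in both, with 95% counting intervals; the dashed line marks equal ratios. Of the 39 members, 37 lie above the dashed line, and Cxcl10 lies farthest out.

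The rest of the pathway was read from lists by role. Of 21 interferon ligand genes none was measured in either kind of library, since their mean stayed under 1 CPM. Ifna4 had 30 reads, all of them in the AF357425-High pulldown. With a floor of 3 reads in place of 0 in the AF357425-Low pulldown, it was 13.2-fold higher. The lower end of its counting interval was a log2 ratio of 3.335. Ifnb1, the beta interferon of fibroblasts, had 10 and 2 pulldown reads and none in whole-cell RNA, a ratio of 2.72 (0.49 to 5.95). Both lay highest in the AF357425-High pulldown, on few reads, and the alpha interferons are near copies of each other. Of 9 receptor and kinase genes, 8 were measured in the pulldown and none was called, where 3.43% of 10736 genes were called higher and 2.90% lower. For 8 genes, none called lies near those shares. Ifnar1, a chain of the type I receptor, had 0.00 (-0.12 to 0.13), Ifngr1 -0.65 (-0.81 to -0.49) and Jak2 -0.94 (-1.09 to -0.79). With library totals Jak2 was called lower, at -1.23 (-1.38 to -1.09).

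Transcription factors of the pathway differed among themselves in the pulldown. Irf7, which amplifies interferon production and is itself induced, had 2.54 and 2.72 CPM in whole-cell RNA and 26.8 and 3.34 CPM in the pulldowns, a ratio of 3.30 (2.98 to 3.63). Stat2 was called higher with TMM, at 1.38 (1.26 to 1.49), but not with library totals, at 1.08 (0.97 to 1.199). Irf9 had 0.34 (0.15 to 0.53) and Irf3 -0.77 (-1.39 to -0.18). Of 9 negative regulators, 6 were measured and 1 was called higher, where 3.43% of 10736 genes were. This was Socs3 at 1.26 (1.02 to 1.51), which with library totals was 0.97 (0.72 to 1.22) and not called. Of 16 sensors and adaptors, 14 were measured and 8 called higher, against the same 3.43% of all genes. Of the 8, Cgas, at 1.56, was not called with library totals (1.26, 0.98 to 1.55). Zbp1, a sensor of Z-form nucleic acid, had 3.89 (3.62 to 4.17), Tlr3 2.599 (2.42 to 2.78) and Dhx58 2.21 (1.84 to 2.61); the adaptor Mavs had 0.04 (-0.24 to 0.32). In whole-cell RNA, no gene of these 5 lists was called, where 0.111% of 13519 genes were called higher and 0.133% lower. For lists of this size, none called lies near those shares.

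NF-kappa-B response genes stand for the other arm of innate signalling. Of 15 genes in that list, 13 were measured in the pulldown, with a median of -0.52. Of these, 0 were called higher and 4 lower, against 3.43% and 2.90% of 10736 genes. With library totals Nfkb2 was called lower as well (-1.38, -1.77 to -1.005). Nfkbia, the inhibitor that NF-kappa-B induces, had 4.83 and 20.4 CPM in the pulldowns, a ratio of -1.79 (-2.08 to -1.50). Cxcl2 had -2.51 (-3.34 to -1.78) and Icam1 -2.30 (-3.16 to -1.53). Both passed the filter only through AF357425-Low, at 0.657 and 0.619 CPM in the AF357425-High pulldown, so that they had to differ. In whole-cell RNA 2 of 11 measured genes of the list were called lower, against 0.133% of 13519 genes. They were Ccl7 at -1.51 and Ccl2 at -1.24, the latter not with library totals (-1.18, -1.3995 to -0.96). In the pulldown these chemokines had 0.68 (0.60 to 0.77) and 0.24 (0.15 to 0.33), and their change was called higher, at 2.19 (1.90 to 2.48) and 1.49 (1.25 to 1.72). Over the list, the change was called higher for 2 and lower for 2 of 12 genes, against 2.65% and 1.66% of 11356 genes.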

How the data were processed

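Whole-cell RNA and RNA from a fibrillarin pulldown were sequenced from primary ear fibroblasts in 2 states, 1 library in each of 4 groups. The authors deposited counts of fragments per Ensembl gene; the tools named per the submitters' processing notes are cutadapt 2.4, STAR 2.6.0c, HTSeq 0.9.1 and StringTie 1.3.4, and the build is GRCm38. No source used here gives the annotation or the strand setting, so overlapping genes cannot be told apart by strand. HTSeq summary lines were left out of totals. Symbols matched 55450 of 55536 IDs; positions, overlaps and promoters came from RefSeq (GRCm38.p6). To compare states, libraries were scaled by TMM (edgeR 4.0.16 under R 4.3.3), and pulldown against whole-cell RNA by library totals. Ratios have an exact Clopper-Pearson 95% interval, while the difference between pulldown and whole-cell ratios has a normal one, and no test between groups was run. Computation was checked on simulated tables. Exon lengths were not used, so levels of different genes are not compared. The 50 members, the pathway lists and their grouping were chosen with earlier results of these data known. Values are written out for the members of each group with the most reads and the highest and lowest pulldown ratio, for all not called in the pulldown, and for others by role. Values of 1 gene of the transcription factor list are not reported here.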

Additional observations from a re-analysis of the deposited data

Results flagged for a closer look

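3 members had whole intervals on opposite sides of 0 in the 2 kinds of library, which is why they are listed; the opposite signs themselves were not tested between groups. Ifit2 had a log2 ratio of AF357425-High over AF357425-Low of -0.51 in whole-cell RNA but 2.999 in the pulldown. Lgals3bp had -0.26 in whole-cell RNA but 1.79 in the pulldown. Ifitm3 had -0.0852 in whole-cell RNA but 0.88 in the pulldown; with library totals its whole-cell ratio was -0.02.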

How the results depend on the processing

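In whole-cell RNA no member was called under any of the scalings, filters and lines tried, and the median stayed between 0.18 and 0.27. In the pulldown, the number of members called higher was 42 to 46 under the other scalings, without a minimum and with a line at 1.5-fold, and 37 with the minimum mean raised to 5 CPM (40 measured, fewer genes by construction). It was 27 with the line at 4-fold, 28 of 29 members that overlap no other gene, and 29 of 30 members with no close paralog (median 2.16). The pulldown median was 2.36 with library totals, 2.38 at a mean of at least 5 CPM, 2.18 among genes measured in whole-cell RNA and 2.29 among those with at least 1 CPM in the AF357425-Low pulldown. With library totals the median of all pulldown genes moved by -0.29 and the split over all genes became 238 higher and 608 lower, from 368 and 311. For the change, 23 members were called higher with library totals (median 1.66), 24 of 32 with 30 or more reads in each library and 31 with the line at 1.5-fold, from 27 of 36, and 0 lower in each. Pulldown against whole-cell RNA depended most on scaling. Without mt-Rnr1 and mt-Rnr2 the medians were 4.48 in AF357425-High and 2.19 in AF357425-Low, with 0 members lower in both and 25 higher in AF357425-Low. With TMM they were 4.88 and 2.31, with 0 lower in both and 27 higher in AF357425-Low. With a line at 1.5-fold 2 members were lower in AF357425-High, and the AF357425-Low median was 0.56 once the minimum mean was raised to 5 CPM. Znfx1 and Parp12 reversed in AF357425-Low, to 0.16 and 0.0645 without mt-Rnr1 and mt-Rnr2 and to 0.28 and 0.18 with TMM. The shares of reads on the members became 1.07% and 0.230% in the pulldowns without mt-Rnr1 and mt-Rnr2. No paired analysis was possible because each group has 1 library. Counting depth limits the 16 members too rare to be measured in whole-cell RNA.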

Other observations

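Genes next to members were read as well, a choice made after the data were seen. Taking the nearest measured gene on each side of a member that was not itself a member, and keeping those within 100 kb, gave 55 genes. Of these, 10 were called higher and 1 lower in the AF357425-High pulldown, with a median log2 ratio of 0.27, where 3.43% of all measured genes were higher. The 10 include relatives of the members, such as Trim30c (6.10), Ifit1bl1 (4.41), Trim30d (3.49) and Sp140 (3.21), and genes of other families, such as Ppm1k (1.36) and Pyurf (1.92) beside Herc6. The span of Ifit1bl1 overlaps the members Ifit1 and Ifit3b, and that of Sp140 overlaps the member Sp110. Reads of these neighbours are thus of uncertain origin. Other relatives within 100 kb were not called, such as Oas1b (0.52), Ifitm2 (0.21), Slfn10-ps (0.95) and Cxcl9 (1.40). Direct neighbours such as Vat1 beside Ifi35 (0.11), Ddx27 beside Znfx1 (0.11) and Aen beside Isg20 (0.08) were not called either.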
